A study of Mus musculus with 6 samples.

Results

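The epicardium is the mesothelial layer that covers the heart, and 10 of its marker genes were followed here in embryonic ventricles: Wt1, Tcf21, Upk1b, Upk3b, Lrrn4, Msln, Gpm6a, Bnc1, Bnc2 and Ezr. Each was found by its symbol among the 23284 genes of the deposited table, with 1 row per gene. The genes were chosen by their use as markers and by earlier results from the same WT and KD values, so their differences are given as a description and no test is made on them. The study asked what happens to ventricular gene expression when Tbx5ua, the lncRNA transcribed divergently from Tbx5, is stopped early. RNA-seq was made from ventricles of E9.5 C57BL/6 chimeric embryos, 3 WT and 3 KD. WT embryos came from WT ES cells. KD embryos, of genotype Tbx5ua -/-, came from ES cells in which both alleles carry tandem copies of a bovine growth hormone polyadenylation site in exon 2 of Tbx5ua. All embryos of both groups were made by tetraploid complementation, in which the tetraploid host gives extraembryonic tissue and the ES cells give the embryo. The KD ES cells were clonal and C57BL/6 J-derived, and from which edited line each sequenced embryo came is not given in the sources used here. The table gives 1 FPKM value (fragments scaled to transcript length and to the mapped total) per gene for each group and none for single embryos. There is therefore no SD, no embryo can be called high or low, and overlap between the groups cannot be judged. The depth of the libraries is unknown.

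The epicardium arises from the proepicardium, a cluster of mesothelial cells at the venous pole that reaches the heart surface around the stage sampled here and spreads over it. Part of its cells later lose their epithelial character and enter the heart wall, where they give rise to fibroblasts and to the smooth muscle of the coronary vessels. The markers fall into regulators of transcription (Wt1, Tcf21, Bnc1, Bnc2), proteins of the cell surface (Upk1b, Upk3b, Lrrn4, Msln, Gpm6a) and a linker of membrane and actin (Ezr). Mesothelia of other organs carry many of them too, so the list does not tell the epicardium from another mesothelium.

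The genes are protein coding and lie on 8 chromosomes, and in the deposited table none of them shares its position with another row. Positions are those of the deposited table on mouse genome build mm10. Promoter sequence is shown for the 4 genes that were at least 2-fold higher in KD and have a promoter in the RefSeq collection used (build GRCm38.p6): Upk3b at chr5:136038246-136038495 on the forward strand, and on the reverse strand Lrrn4 at chr2:132880863-132881112, Tcf21 at chr10:22820144-22820393 and Bnc1 at chr7:81992300-81992549. Each run holds the 250 bases before the annotated start, 5′ to 3′ on the strand of the gene, with capitals for matches on either strand to the motifs described after them.

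Upk3b: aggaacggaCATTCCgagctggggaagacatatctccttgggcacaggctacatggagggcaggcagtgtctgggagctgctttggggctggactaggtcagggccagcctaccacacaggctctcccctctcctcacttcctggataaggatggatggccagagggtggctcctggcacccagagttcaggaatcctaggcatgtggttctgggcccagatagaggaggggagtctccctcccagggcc

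Lrrn4: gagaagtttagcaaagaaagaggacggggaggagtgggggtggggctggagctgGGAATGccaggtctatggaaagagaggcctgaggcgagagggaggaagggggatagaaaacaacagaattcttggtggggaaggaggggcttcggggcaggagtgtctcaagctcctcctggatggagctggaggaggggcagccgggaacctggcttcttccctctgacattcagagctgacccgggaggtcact

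Tcf21: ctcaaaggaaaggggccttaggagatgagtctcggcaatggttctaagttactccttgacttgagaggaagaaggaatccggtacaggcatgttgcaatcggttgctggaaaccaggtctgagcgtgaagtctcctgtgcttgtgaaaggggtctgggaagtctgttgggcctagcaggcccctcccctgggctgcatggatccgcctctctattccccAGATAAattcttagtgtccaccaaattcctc

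Bnc1: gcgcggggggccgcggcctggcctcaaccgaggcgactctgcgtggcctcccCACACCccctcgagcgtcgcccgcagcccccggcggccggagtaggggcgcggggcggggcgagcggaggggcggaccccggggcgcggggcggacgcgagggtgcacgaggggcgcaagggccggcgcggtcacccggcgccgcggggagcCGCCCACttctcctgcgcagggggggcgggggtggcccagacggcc

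A small set of motifs were searched on both strands. Of the 10 genes 7 had a promoter, Gpm6a with 2 starts, and Wt1, Upk1b and Msln had no entry. The letters bound by TEAD factors, GGAATG, occurred before Upk3b, Lrrn4 and 1 start of Gpm6a, in 3 of 8 windows, against 12.6% of all 32851 windows of the same length. In the runs printed they begin 241 bases before the start of Upk3b and 196 bases before that of Lrrn4. The GATA factor letters, AGATAA, occurred before Tcf21 alone of the 7 genes, beginning 31 bases from its RefSeq start, and in 9.99% of all windows. The GENCODE annotation starts Tcf21 at 22820174, within the printed window, so this match lies before the RefSeq start only. The T-box letters, GGTGTG, occurred before Bnc1 alone, beginning 198 bases from its start, and in 16.3% of all windows. The zinc finger core of EGR and WT1 proteins was searched in its form GTGGGCG, found 46 bases before the start of Bnc1 and in 7.02% of all windows. Its other form, GTGGGAG, was in 0 of the 8 windows and in 8.25% of all. An E-box searched as CAGCTG was also in 0 of the 8 and in 13.0% of all. The promoter of Bnc1 was the richest in G and C at 83.6%, against 60.8% for Upk3b, 59.2% for Lrrn4, 52.4% for Tcf21 and a median of 52.4% over all windows. No motif was shared by all the genes, and a match in these letters is a description of the sequence only.

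All 10 genes had a higher group value in KD than in WT. Of the 7 whose mean of the group values reached 1 FPKM, 5 (Bnc1, Upk3b, Upk1b, Lrrn4 and Tcf21) were at least 2-fold higher in KD and 0 were at least 2-fold lower. Among all 11309 genes above the same limit, 1.03% were at least 2-fold higher and 0.707% at least 2-fold lower. At 1.5-fold the count of the 7 was the same 5 higher and 0 lower, against 3.89% and 2.67% of all genes. The median log2 ratio, KD over WT, was 1.21 for the 7 genes and 0.00 for all genes above the limit. Because earlier values of this contrast took part in the choice of the genes, nothing is read from these counts. In ventricle RNA, more cells of a type and more RNA per cell cannot be told apart.

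**Figure D1:**
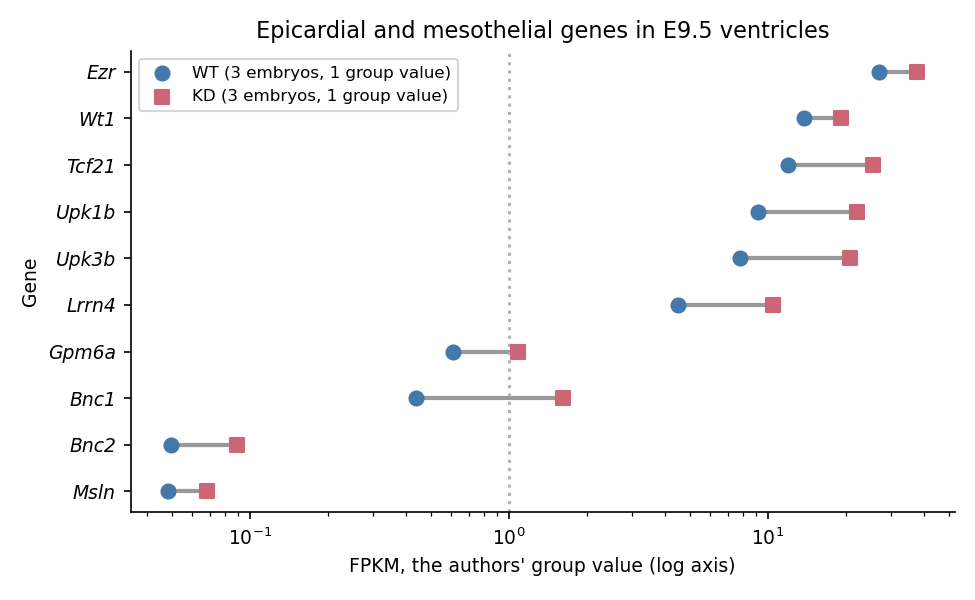
FPKM of each gene in WT (circles) and KD (squares) on a log axis, 1 group value made from 3 embryos each, with a dotted line at 1 FPKM. Every square lies to the right of its circle, and the longest step is that of Bnc1, from 0.439 to 1.62 FPKM.

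Upk3b and Upk1b are uroplakins, membrane proteins first known from the urothelium and also made by mesothelia. Upk3b (chromosome 5, 136038496 to 136044993) had 7.80 FPKM in WT against 20.7 in KD, a 2.66-fold difference in the group values (log2 ratio 1.41). Upk1b, a tetraspanin (chromosome 16, 38773184 to 38800203), had 9.17 FPKM in WT against 22.1 in KD, a 2.41-fold difference (log2 ratio 1.27). The gain in KD was close to equal for the pair, 12.9 FPKM each. The other uroplakin genes were near 0 in both groups. Upk1a had 0.212 FPKM in WT against 0.307 in KD, Upk3a 0.0215 and 0.0204 FPKM, and Upk2 0.0195 FPKM in WT with 0 listed in KD. The row 2310043J07Rik, an older symbol of Upk3bl, was listed at 0 in WT and had 0.0153 FPKM in KD. The uroplakin genes above 1 FPKM were thus the 2 that mark mesothelium, in WT as in KD.

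Lrrn4, a neuronal leucine-rich repeat protein that also marks mesothelium, lies on chromosome 2 from 132868516 to 132880862. It had 4.51 FPKM in WT against 10.5 in KD, a 2.32-fold difference (log2 ratio 1.21). Its relatives were low and closer together, with 0.970 FPKM in WT against 1.05 in KD for Lrrn3, and 0.696 and 0.854 FPKM for Lrrn2. Lrrn1 had 0.0361 FPKM in WT against 0.186 in KD, too little for the ratio to carry weight.

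Tcf21, a basic helix-loop-helix factor needed for cardiac fibroblasts to form from the epicardium, lies on chromosome 10 from 22817275 to 22820128. It had 11.9 FPKM in WT against 25.5 in KD, a 2.14-fold difference (log2 ratio 1.10) and the largest gain of the 10 genes at 13.6 FPKM. GENCODE places an antisense gene, Gm10824, across Tcf21, and it has no row in the table. Smart-Seq2 libraries do not mark the strand, so reads of such a partner would count with Tcf21. The same limit holds for Bnc1, where the opposite-strand pseudogene 4833418N17Rik has no row. It holds too for Ezr, where Sytl3 on the opposite strand was listed at 0 in WT and had 0.0181 FPKM in KD. Msc, the close relative of Tcf21, was listed at 0 in WT and had 0.0108 FPKM in KD.

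Wt1 encodes the zinc finger factor that is the most used marker of the epicardium and is required for its cells to become mesenchyme. Its values, on chromosome 2 from 105126529 to 105173614, were 13.8 FPKM in WT against 19.2 in KD, a 1.39-fold difference (log2 ratio 0.48). It was thus among the highest of the 10 genes in WT and among the least different between the groups. The divergent lncRNA of Wt1, Wt1os, is listed as AI314831 from 105076538 to 105126510, which leaves 18 bases between both genes. It had 0.0209 FPKM in WT against 0.0840 in KD, and Cuffdiff marked it as having too few fragments to compare.

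Bnc1, a basonuclin zinc finger protein of keratinocytes, germ cells and mesothelium, lies on chromosome 7 from 81966662 to 81992299. It had 0.439 FPKM in WT against 1.62 in KD, which gives the largest ratio of the 10 (3.68-fold, log2 ratio 1.88) from a low level. Bnc1 passed the limit of 1 FPKM only through its KD value. With 1 FPKM added to each group value its log2 ratio is 0.86, below the 2-fold line. Its relative Bnc2 (chromosome 4, 84272542 to 84675086) had 0.0494 FPKM in WT against 0.0892 in KD.

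Ezr encodes ezrin, which ties the membrane to cortical actin in epithelia. It had the highest level of the 10 in either group, 26.8 FPKM in WT against 37.8 in KD, a 1.41-fold difference (log2 ratio 0.49), and lies on chromosome 17 from 6738131 to 6782780. The other ezrin, radixin and moesin family genes were more abundant and nearly level between the groups. Rdx, whose row shares its position with Gm6981, had 113 FPKM in WT against 111 in KD (log2 ratio -0.03), and Msn 53.0 and 53.3 FPKM (log2 ratio 0.01). Ezr, the family member used as a mesothelial marker, was the least abundant and had the largest ratio of the 3.

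Gpm6a, a proteolipid membrane protein of neurons and of mesothelium (chromosome 8, 54779434 to 55060878), had 0.610 FPKM in WT against 1.09 in KD, a 1.78-fold difference just under the limit of 1 FPKM for the mean. Gpm6b, of the same family, lay the other way, with 2.03 FPKM in WT against 1.21 in KD (log2 ratio -0.75). Msln, which encodes the surface protein mesothelin (chromosome 17, 25748613 to 25754327), had 0.0483 FPKM in WT against 0.0683 in KD. Msln and Bnc2 are near the floor in both groups, and Cuffdiff marked these 2 genes as having too few fragments to compare. For these 2 genes the ventricles give no usable level, whatever their ratio.

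On the FPKM scale, which is per length and so allows genes to be ranked, the order in WT was Ezr, Wt1, Tcf21, Upk1b, Upk3b, Lrrn4, Gpm6a, Bnc1, Bnc2, Msln. In KD it was Ezr, Tcf21, Upk1b, Upk3b, Wt1, Lrrn4, Bnc1, Gpm6a, Bnc2, Msln. Wt1 went from the second to the fifth place, since its own step was smaller than those of the genes around it. Expressed per Wt1, the level of Upk3b was 56.6% in WT and 108% in KD, that of Upk1b 66.5% and 115%, and that of Tcf21 86.4% and 133%. That of Ezr was 194% in WT and 197% in KD. By ratio, 5 of the 7 genes above the limit ran from 2.14-fold to 3.68-fold, and Wt1 and Ezr were at 1.39-fold and 1.41-fold. The gap between them depends on the limit and on the use of plain ratios. Gpm6a, just below the limit, was 1.78-fold higher in KD. With 1 FPKM added to each group value, Bnc1 has a log2 ratio of 0.86, below the 2-fold line. Without single embryos it is not known which neighbours in either order differ beyond their spread.

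The spread of the ratio over genes narrows with level, so the shares past 2-fold are also given for genes of like abundance. Of the 3809 genes with a mean of at least 5 and below 20 FPKM, 0.499% were at least 2-fold higher in KD, and the log2 ratio had an SD over genes of 0.33. Wt1, Tcf21, Upk1b, Upk3b and Lrrn4 belong there, 4 of them past 2-fold. Of the 3654 genes from 1 to below 5 FPKM, where Bnc1 lies, 2.44% were so, with an SD over genes of 0.52. Among the 3846 genes of at least 20 FPKM, where Ezr lies, the SD over genes was 0.24 and 0.728% were at least 1.5-fold higher, a mark that Ezr did not reach. Ranked from the highest ratio down among the 11309 genes, Bnc1 stood at 18, Upk3b at 46, Upk1b at 57, Lrrn4 at 65 and Tcf21 at 87, while Ezr stood at 637 and Wt1 at 677. This spread is one over genes and not over embryos. Because the genes were chosen with earlier values of this contrast known, nothing is read from their places or from the count past 2-fold.

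**Figure D2:**
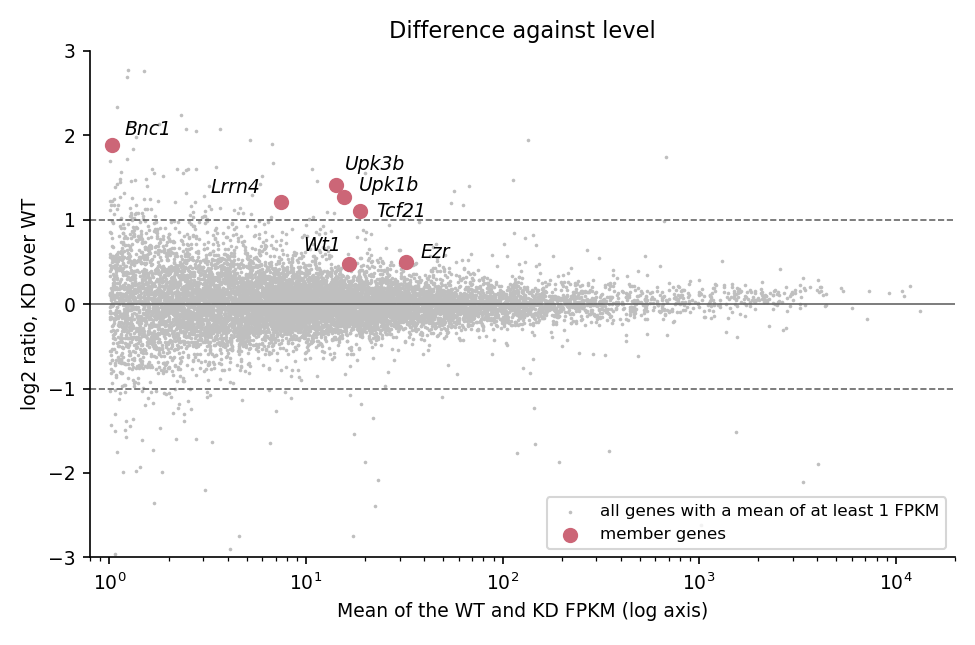
The log2 ratio of KD over WT against the mean of the WT and KD FPKM on a log axis, for the 11309 genes with a mean of at least 1 FPKM (grey; 8 genes lie beyond 3 in either direction and are not drawn) and the 7 epicardial genes among them (red). Dashed lines mark 2-fold, and Upk3b, Upk1b, Tcf21 and Lrrn4 lie above the upper one at levels where few grey points do. The red genes were chosen with such values known.

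A second list of 20 genes used for the epicardium divided between genes with higher KD values and genes that were level. This list and those that follow were also chosen with earlier results of these data known, so their counts are a description only. Of its 12 genes above 1 FPKM, 8 were higher and 4 lower in KD, with a median log2 ratio of 0.13. At 2-fold 3 were higher (1.03% of all genes), at 1.5-fold 5 were higher (3.89% of all genes) and 0 were lower. Of these 5, Itga4, Efemp1 and Aldh1a2 lie from 1 to below 5 FPKM, where 8.98% of genes were at least 1.5-fold higher. Efemp1 and Aldh1a2 passed the limit only through their KD values, which favours calls in the higher direction. Aldh1a1 and Aldh1a2 encode enzymes that make retinoic acid, a signal of the epicardium to the myocardium. Aldh1a1 had 3.25 FPKM in WT against 10.3 in KD (3.18-fold), and Aldh1a2 0.872 and 1.74 FPKM (1.99-fold). Itga4, the integrin by which proepicardial cells hold to the myocardium, had 1.37 FPKM in WT against 4.15 in KD (3.04-fold), though its row shares its position with Cerkl. Tbx18, a T-box factor of the proepicardium, had 3.46 FPKM in WT against 6.56 in KD (1.89-fold). Efemp1, a matrix glycoprotein, had 0.687 and 1.89 FPKM (2.76-fold). Sema3d, a guidance signal of the proepicardium, had 0.324 FPKM in WT against 0.930 in KD, below the limit.

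The abundant genes of that list were level. Krt19 had 111.3 FPKM in WT against 110.6 in KD, Krt8 109 and 97.9 FPKM, Krt18 52.2 and 55.4 FPKM, Gata5 28.5 and 27.0 FPKM (its row shares its position with Gm14318), and Alcam 23.2 and 22.3 FPKM. Podxl, the podocalyxin of mesothelial surfaces, had 13.6 FPKM in WT against 14.6 in KD. Simple keratins and these surface genes are not limited to mesothelium in the embryo. Which cells gave the reads of the genes in this list, level or higher in KD, was not tested. Anxa8, whose row shares its position with Antxrl, lay the other way with 0.627 FPKM in WT against 0.0277 in KD, and so did Dmkn with 0.688 and 0.338 FPKM, both below the limit. Of 10 genes known as WT1 targets 7 were above the limit, with 4 higher and 3 lower in KD and a median log2 ratio of 0.10. Besides Itga4 and Aldh1a2, which stand in both lists, Spry1 was at least 1.5-fold higher, with 1.93 FPKM in WT against 2.93 in KD. These 3 of 7 stand beside 3.89% of all genes, and beside 8.98% of genes from 1 to below 5 FPKM, where all 3 lie. The WT1 list too was chosen with earlier results known, so nothing is read from that count. Snai1, Bcl2 and Nes had lower KD values, with log2 ratios from -0.23 to -0.16.

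Markers of the mesenchyme that the epicardium gives rise to were counted in the same way, from a list also chosen with earlier results of these data known. Of 12 genes above 1 FPKM, 10 had a higher and 2 a lower KD value, with a median log2 ratio of 0.42. At least 2-fold higher were 3 (1.03% of all genes), at least 1.5-fold higher 5 (3.89% of all genes) and at least 1.5-fold lower 0. Of the 12 genes, 7 lie from 1 to below 5 FPKM, where 8.98% of genes were at least 1.5-fold higher. Pdgfra passed the limit only through its KD value. Dcn, the proteoglycan decorin, had 2.15 FPKM in WT against 8.28 in KD (3.85-fold). Pdgfra, the receptor that marks cardiac fibroblast precursors, had 0.969 and 2.78 FPKM (2.86-fold), and Col1a1 1.76 and 4.64 FPKM (2.64-fold). Snai2 and Twist1, factors of the epithelial to mesenchymal transition, were at least 1.5-fold higher, with 1.45 and 2.52 FPKM for Snai2 and 1.98 and 3.23 FPKM for Twist1. The other such factors of the list did not follow them. Snai1, the most abundant, was lower, with 9.06 FPKM in WT against 7.73 in KD. Zeb1, whose row shares its position with Gm10125, had 7.04 and 8.25 FPKM (1.17-fold). The most abundant gene of the list, Col3a1, had 23.0 FPKM in WT against 30.7 in KD (1.34-fold). Pdgfrb, of mural cells, was level at 1.68 and 1.75 FPKM. Zeb2, also a factor of that transition, was lower, at 4.66 and 3.43 FPKM, and its row shares its position with Gm13476. Many other mesenchymal cells of the embryo express these genes.

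Markers of the other cell types of the ventricle were counted at 1.5-fold. Of 10 cardiomyocyte, 9 endocardial and 7 erythroid genes, all above the limit, 0 were 1.5-fold higher or lower, where 3.89% of all genes were higher and 2.67% lower, so a count of 0 is near the general share. Their median log2 ratios were -0.03, 0.11 and 0.11. The most abundant cardiomyocyte gene was Myl7, a myosin light chain, with 13643 FPKM in WT against 12907 in KD. That of the endocardial list was Egfl7, an endothelial secreted factor, with 71.4 and 89.1 FPKM. Among the erythroid genes the embryonic globin Hba-x was highest in WT, with 4401 and 4318 FPKM. In KD the highest of them was Hbb-y, with 4138 FPKM in WT against 4453 in KD. The cardiomyocyte genes other than Ttn (9.49 and 8.62 FPKM) ranged from 224 to 13643 FPKM in WT and from 239 to 12907 FPKM in KD. Single genes of the other lists differed about as much as Wt1, with 2.80 FPKM in WT against 3.88 in KD for Gata1 (1.38-fold) and 43.1 and 57.4 FPKM for Emcn (1.33-fold).

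**Figure D3:**
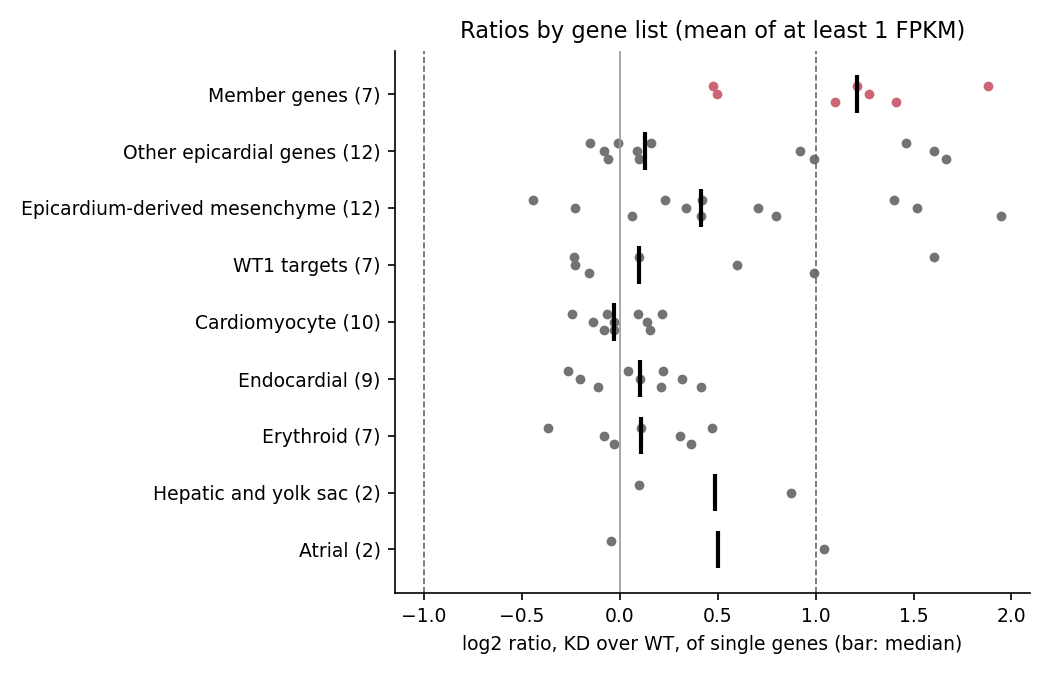
The log2 ratio of KD over WT for each gene with a mean of at least 1 FPKM, by list, for lists with at least 2 such genes (their number in brackets, bars at the median, dashed lines at 2-fold in either direction). The 7 epicardial genes, chosen with such values known, run from 0.48 (Wt1) to 1.88 (Bnc1), and the cardiomyocyte, endocardial and erythroid genes from -0.37 to 0.47 (Gata1).

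Genes of tissues that lie next to the heart were few and low. The 9 hepatic and yolk sac genes summed to 4.57 FPKM in WT against 6.36 in KD, mostly Trf (2.70 and 2.88 FPKM) and Rbp4 (1.12 and 2.05 FPKM), while Alb and Fgb were listed at 0 in both groups and Afp had 0.00717 FPKM in WT against 0.294 in KD. The 7 genes of foregut endoderm and lung bud summed to 3.77 and 3.96 FPKM, nearly all of it Sox17, which endothelium also expresses, with Foxa1 and Shh listed at 0 in both groups. The 4 genes of surface ectoderm summed to 0.0321 FPKM in WT against 0.334 in KD, with Krt5 listed at 0 in both, and the 4 of neural crest to 0.146 and 0.141 FPKM, with Foxd3 listed at 0 in both. The 7 genes of body wall, pharyngeal and septum transversum mesenchyme summed to 2.33 and 3.48 FPKM. Barx1, the most abundant of them and the only one above the limit, had 1.19 FPKM in WT against 1.42 in KD. Among the others Hlx had 0.350 and 0.768 FPKM, Prrx1 0.324 and 0.623 FPKM, and Lhx2 was listed at 0 in WT and had 0.268 FPKM in KD. Alx1, at 0.373 and 0.321 FPKM, and Foxf1a, at 0.0965 and 0.0824 FPKM, were lower in KD, and Tbx1 was listed at 0 in both. The 10 epicardial and mesothelial genes, chosen with such values known, summed to 75.1 FPKM in WT against 139 in KD. Sums over different genes do not measure shares of tissue, so nothing is read from comparing them. Of the 6 atrial genes only Nr2f2 and Myl4 were above the limit, with 2.01 and 4.15 FPKM for Nr2f2, which shares its position with B130024G19Rik, and 6082 and 5896 FPKM for Myl4, and Sln was listed at 0 in both. Myl4 makes up nearly all of the sum of this list, 6086 FPKM in WT and 5903 FPKM in KD. Below the limit, Nr2f1, whose row shares its position with A830082K12Rik, had 0.552 FPKM in WT against 1.07 in KD (1.94-fold), Vsnl1 0.555 and 1.14 FPKM (2.05-fold), and Kcnj3 0.758 and 0.811 FPKM (1.07-fold). The part that atrial or other tissue taken at dissection, or the stage of each embryo, have in the epicardial values was not tested.

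The chromosomal neighbours of the 10 genes were read from the same table. The nearest gene with a mean of at least 1 FPKM was taken on each side, 20 in all, and the median log2 ratio of the 19 above 0 in both groups was 0.11. Of these 19, 18 lay within 1.5-fold and 1 was at least 1.5-fold higher, Hpgd, 1234 kb from Gpm6a, with 0.965 FPKM in WT against 1.89 in KD. Over all genes 3.89% were at least 1.5-fold higher and 2.67% lower, so 1 of 19 is near the general share. The closest neighbours of Lrrn4, Upk1b and Upk3b were near level. Beside Bnc1, which had the largest ratio, the nearest was Tm6sf1, 32.2 kb away, with 4.08 FPKM in WT against 3.98 in KD. Crls1 lies 1.75 kb from Lrrn4 and had 4.02 FPKM in WT against 3.93 in KD. B4galt4 lies 4.14 kb from Upk1b and had 13.8 and 14.9 FPKM, and Dtx2, 5.61 kb from Upk3b, had 18.7 and 22.3 FPKM. The neighbour left without a ratio is Mir692-1, a microRNA row beside Ezr with 25.4 FPKM in WT and 0 listed in KD. Such short rows are poorly measured in libraries of full-length cDNA.

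**Figure D4:**
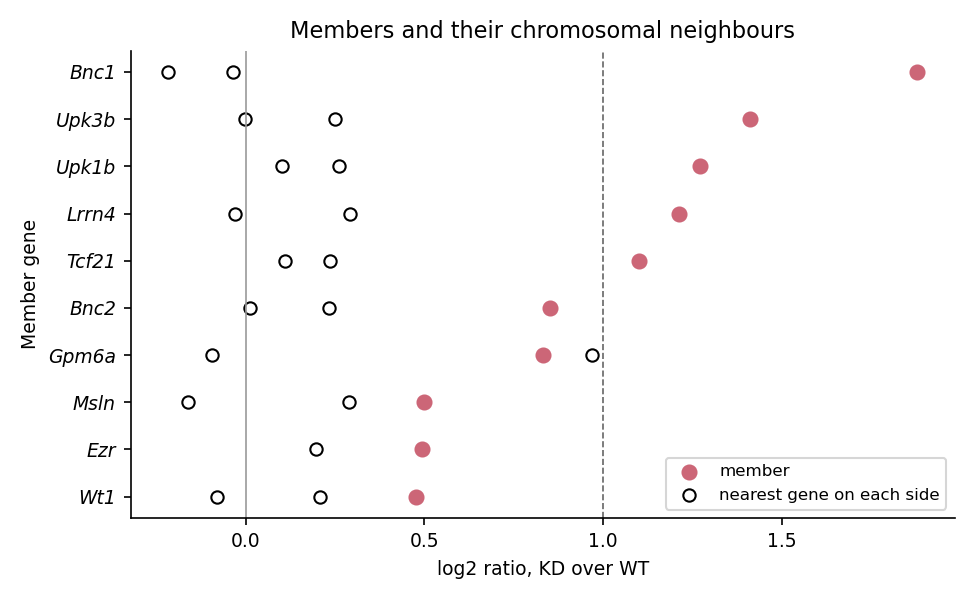
The log2 ratio of KD over WT of each of the 10 genes (red) and of the nearest gene on either side with a mean of at least 1 FPKM (open circles), with a dashed line at 2-fold; Mir692-1, listed at 0 in KD, is not drawn. In each row but that of Gpm6a the gene itself lies to the right of its neighbours. The 10 genes were chosen with such values known, so nothing is read from this order. Msln and Bnc2 had too few fragments to compare.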

How the data were processed

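Total RNA came from E9.5 ventricles (3 WT embryos, 3 KD embryos), and libraries were made by Smart-Seq2 from 10 ng of RNA, with 12 cycles of preamplification and 9 of enrichment PCR, for single-end reads. The submitters' processing notes name TopHat, Bowtie2, Cuffdiff and build mm10; versions and annotation are not given in the sources used here. The authors deposited 1 Cuffdiff table that gives each gene 1 FPKM for WT and 1 for KO (here KD), already pooled over embryos. It also holds the authors' log2 fold changes, test scores, p-values, q-values and significance flags, which were not used. Cuffdiff's note on whether a gene had enough fragments was read.

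Ratios are KD over WT of the group values with no pseudocount, and levels over genes use a mean of at least 1 FPKM in genes above 0 in both groups. At least 2-fold was counted, and 1.5-fold beside it. No test was made, because 1 value per group gives no error. The epicardial genes and all lists were chosen with earlier results of these data known. Genes named were the 10, their family members, genes of a list at least 1.5-fold different and its most abundant genes. A family gene is not reported here. Other genes, those below the limit among them, were named after their values were seen. Older RefSeq symbols served for Foxf1 (Foxf1a), Upk3bl and Wt1os, and Muc16 had no match. Table starts were given with 1 added: 6286 GENCODE M21 gene starts matched so, and 681 without. Protein sequences were not analysed here. The filter and counts were tested on simulated data with known answers. Python 3.11.15, NumPy 2.4.6, pandas 2.3.3 and Matplotlib 3.10.9 were used.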

Additional observations from a re-analysis of the deposited data

How the results depend on the processing

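No paired analysis was possible because embryos were pooled into 1 value per group. For the same reason leaving out each replicate and the replicate block were not run. The count of 5 epicardial genes at least 2-fold higher in KD was 4 with a pseudocount of 1, which takes Bnc1 below the line, and 4 of 6 with a mean of at least 5 FPKM, which removes it. It was 5 under each other alternative, among them a pseudocount of 0.1, the median of all genes subtracted, scaling to the same sum, no filter, and 1.5-fold as the threshold. Over all genes above the limit, 0.38% were at least 2-fold higher with a pseudocount of 1, and 0.366% with a mean of at least 5 FPKM. The share was 0.902% with a pseudocount of 0.1, 1.03% with the median subtracted and 0.939% after scaling to the same sum. At 1.5-fold it was 3.89%. Without a filter, 6.78% of 15739 genes were at least 2-fold higher. The median log2 ratio of 1.21 went to 1.04 with a pseudocount of 1, and to 0.98 with no filter, which adds Gpm6a, Msln and Bnc2. Of 40 single-gene values under the alternatives of pseudocount, centring and scaling, 31 stayed within 0.1 of the plain log2 ratio, 9 moved by more, each with a pseudocount, and 0 changed direction. With a pseudocount of 1 the log2 ratio of Msln was 0.03 and that of Bnc2 0.05. Scaling to the same sum shifts every log2 ratio by -0.03. The depth is unknown, and how far it limits what can be said of the low genes Msln, Bnc2, Gpm6a and Bnc1 was not measured.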
